A study of Mus musculus with 16 samples.

Results

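The cells described here were mature dendritic cells (DCs) of the liver-draining lymph node (LN) that carried little of either surface protein commonly used to name a mature DC subset, CD301b or XCR1. They were chosen by RNA and antibody values in 3 CITE-seq libraries, in which each cell is measured for its RNA and, through antibodies that carry a DNA tag, for surface proteins. A barcode counted as a cell with at least 1000 RNA UMIs (unique molecular identifiers, each standing for 1 captured RNA molecule), at least 500 genes detected and no more than 10% of UMIs from mitochondria. A mature DC held at least 1 UMI each of Ccr7 and Fscn1 and none of Cd3e or Cd79a. The CD301b- XCR1- cells were those mature DCs in which the CD301b tag and the XCR1 tag each gave less than 10% of the cell's antibody UMIs. They numbered 1057 of 1668 mature DCs and of 19543 cells in all, with 199 cells at D0, 356 at D5 and 502 at D19. The remaining mature DCs were 328 CD301b+ cells, 282 XCR1+ cells and 1 cell with both tags.

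The study followed immune cells in the liver and its LN during cholestasis, an injury by retained bile, in male C57BL/6J mice. The injury came from chow with 0.1% DDC, that is 3,5-diethoxycarbonyl-1,4-dihydrocollidine, which damages the bile ducts. D0 was the control without DDC, and D5 and D19 give the days of diet. The library titled D5 is described as D6 in another label, and it is called D5 here. Hepatoduodenal and celiac LN were digested, and live singlets, CD45+ CD11c-, CD45+ CD11c+, Pdpn+ and CD45- Pdpn- cells were sorted and mixed in equal parts, so that shares of all cells were set in part by the sort. Each day was 1 library, and the number of mice in a library was not stated. No test between days was therefore made. Intervals are exact 95% intervals and cover counting error only, not variation between mice, libraries or cells.

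DCs take up antigen in tissues and, on maturing, raise the chemokine receptor CCR7, which guides them along lymph vessels to the draining node. There they present peptides on MHC molecules to T cells, give costimulatory signals and release chemokines that draw T cells near. The actin-bundling protein fascin, encoded by Fscn1, marks this mature state. Conventional DCs fall into a type 1 branch (cDC1) that carries XCR1 and a type 2 branch (cDC2) that carries CD11b and, in part, the lectin CD301b, encoded by Mgl2. Mature DCs lose much of the RNA by which these branches are told apart.

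The subset boundary rests on 2 of the 11 antibody tags, those of CD301b and XCR1. No limit was set on the tag of CD11b, which gave the largest share of their antibody UMIs. Its UMIs did count in the total from which the CD301b and XCR1 shares were taken. The CD11b share was therefore not independent of the choice. The tag letters read in each library, all in lower case because no base in them was singled out, were as follows, 5′ to 3′.
CD301b: cttgccttgcgattt
XCR1: tccattacccacgtt
CD11b: tgaaggctcatttgt

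The values by which the cells were chosen are given as a description. The median CD301b share was 0.47%, 0.31% and 0.92% at D0, D5 and D19, and the median XCR1 share was 0.28%, 0.29% and 0.20%. Around the CD301b boundary, between 8% and 12%, 3, 2 and 24 cells lay just inside and 4, 2 and 26 just outside on the 3 days. Around the XCR1 boundary the counts were 6, 12 and 14 inside and 7, 3 and 19 outside. Of the chosen cells, 29, 24 and 44 held a single Ccr7 UMI and 31, 25 and 108 a single Fscn1 UMI. The D19 library thus held the most cells near the CD301b boundary and near the Fscn1 minimum, and it was also the shallowest.

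The median depth of the chosen cells was 7384, 7774 and 4137 RNA UMIs on the 3 days, and their summed RNA was 1683016, 3050227 and 2346426 UMIs. Whole libraries held 32013882 to 47653941 RNA UMIs. No barcode of a chosen cell was shared between D0 and either other library, and 1 was shared between D5 and D19. Cells that held UMIs of other lineages were counted by a limit on selected markers and numbered 50 at D0 (25.1%), 75 at D5 (21.1%) and 51 at D19 (10.2%). The limit was 2 UMIs of Siglech, of Cd3d, Cd3g, Trac and Trbc2 together or of a set of B cell markers together, 3 of Lyz2, C1qa, C1qb and C1qc together or of Nkg7, Gzma, Ncr1 and Klrb1c together, or 10 of Jchain. Cells below it were not free of such RNA. On the fuller lists, 78, 182 and 233 of the chosen cells held 2 or more UMIs of the T cell list, which includes Il7r, and 92, 131 and 30 of the B cell list, which includes Ighm. Several counts of genes below moved when these cells were left out, and they are then given both ways.

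Genes of the mature DC list other than Ccr7 and Fscn1 were found in these cells, among them Ccl5 and Samsn1. Ccl5 stood at 7721, 6181 and 9727 CPM at D0, D5 and D19, where CPM is a gene's UMIs summed over the cells of a library and scaled to a common total. Samsn1, an adaptor protein gene of the mature DC list, stood at 1009, 1236 and 1822 CPM. The whole list, with Ccr7 and Fscn1, summed to 19637, 21018 and 26018 CPM. The sum was higher in XCR1+ cells, at 28766, 30451 and 29363 CPM. In CD301b+ cells it was at 26293, 21093 and 27221 CPM, nearly the same at D5. Ccl5 was a large part of the sum and was itself higher in XCR1+ cells, so that the sum does not stand for the whole list. Against CD301b+ cells 0 of 16 tested genes of the list were called in the test given below, and against XCR1+ cells 1 was higher and 7 lower. At D0 the precursor DC, plasmacytoid DC and macrophage lists summed to 1589, 1373 and 913 CPM. This was below the 2320, 2138 and 1284 CPM in the free RNA, that of barcodes with fewer than 100 UMIs. The 10 highest cells gave 62.5%, 76.5% and 63.4% of these UMIs in the chosen cells. These lists were at 548, 301 and 76.2 CPM in CD301b+ and 505, 352 and 70.9 CPM in XCR1+ cells. The gap was not alike on all days. At D5 the precursor and plasmacytoid DC lists were at 1082 and 812 CPM, against 967 and 764 CPM in CD301b+ cells. At D19 the plasmacytoid DC list was at 375 CPM, against 376 CPM in XCR1+ cells. In every other such comparison of these lists the CD301b- XCR1- cells were higher. RNA of the branch markers was low. Mgl2 was at 2.97, 2.62 and 2.56 CPM, Itgam, which encodes CD11b, at 8.32, 2.62 and 4.26 CPM and Xcr1 at 10.7, 2.29 and 2.13 CPM. In the free RNA of barcodes with fewer than 100 UMIs, Itgam stood at 3.43, 1.29 and 2.90 CPM.

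CD301b- XCR1- cells were the largest group of mature DCs in each library. They were 67.0% of mature DCs at D0 (199 of 297, interval 61.3 to 72.3%), 78.1% at D5 (356 of 456, interval 74.0 to 81.8%) and 54.9% at D19 (502 of 915, interval 51.6 to 58.1%). The intervals of the 3 days did not overlap, with D5 the highest and D19 the lowest. As a share of all cells they were 3.04% (interval 2.64 to 3.49%), 5.70% (5.14 to 6.30%) and 7.43% (6.82 to 8.09%), the highest at D19. The lower share among mature DCs at D19 stood beside more CD301b+ cells, which were 34, 48 and 246, or 11.4%, 10.5% and 26.9% of mature DCs. XCR1+ cells were 64, 52 and 166, or 21.5%, 11.4% and 18.1%. With the boundary at 5% the shares of CD301b- XCR1- cells were 57.6%, 70.8% and 43.6%, and at 15% they were 75.8%, 82.9% and 62.5%, with the same order of days. Sort, mice and day of diet cannot be told apart for these shares.

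**Figure D1:**
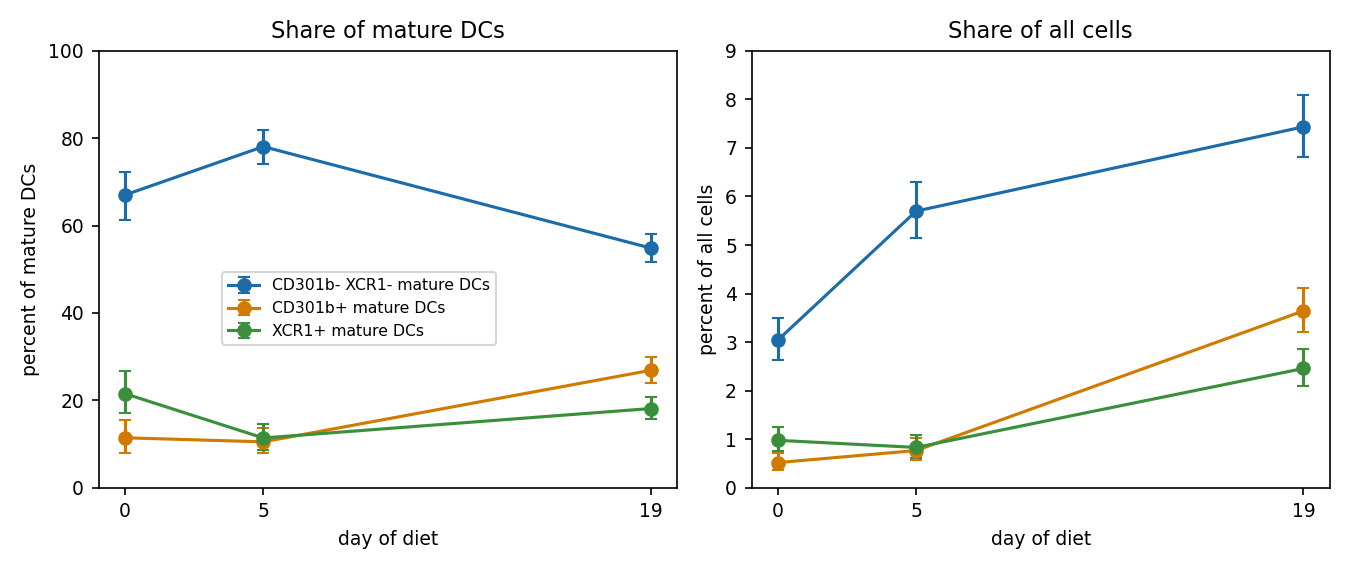
Share of each subset among mature DCs (left, percent) and among all cells (right, percent) against the day of diet, with exact 95% Clopper-Pearson intervals as bars and 1 library a day. CD301b- XCR1- cells were the largest subset on each day, at 67.0%, 78.1% and 54.9% of mature DCs.

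Most of the chosen cells carried CD11b, the integrin chain of cDC2 and other myeloid cells. The CD11b tag reached 10% of antibody UMIs in 161 of 199 cells at D0 (80.9%, interval 74.7 to 86.1%), 300 of 356 at D5 (84.3%, interval 80.1 to 87.9%) and 465 of 502 at D19 (92.6%, interval 89.98 to 94.8%). The D19 share lay above the intervals of D0 and D5, which overlapped each other. Among CD301b+ cells 100%, 100% and 99.2% reached it, and among XCR1+ cells 18.8%, 46.2% and 42.8%. B cells, which should lack CD11b, reached it in 47.3%, 48.6% and 46.3% of cells, but with medians of only 6, 6 and 3 CD11b UMIs against 256, 580 and 368 in the CD301b- XCR1- cells. A share of 10% was thus a loose sign of CD11b in cells with few antibody UMIs.

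The median share separated the cells more clearly. CD11b gave a median of 44.5%, 56.0% and 73.1% of the antibody UMIs in CD301b- XCR1- cells at D0, D5 and D19, against 4.05%, 8.88% and 8.70% in XCR1+ cells and 9.25%, 9.59% and 8.70% in B cells. In CD301b+ cells the medians were 54.6%, 53.7% and 52.1%, so that the median of CD301b- XCR1- cells was below theirs at D0 and above it at D19. Shares of a cell's tags add to 100%, and a CD301b+ cell gives at least 10% to CD301b by definition. The 25th percentile of the CD11b share in CD301b- XCR1- cells was 15.7%, 19.1% and 56.2%, so that cells with a low CD11b share were a smaller part at D19. In UMIs the median of CD11b was 256, 580 and 368 and that of all tags together 734, 1206 and 556.5. The higher share at D19 was thus not a higher CD11b count than at D5. The part of the other tags in it was not tested.

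Of the other tags, CD80, a ligand of CD28 on T cells, gave medians of 9.43%, 13.4% and 10.2%. B cells stood at 16.1%, 18.0% and 27.3%, with medians of 10, 10 and 7 CD80 UMIs against 80, 156 and 53.5 in the CD301b- XCR1- cells. CD8a, which mouse cDC1 of LN can carry, gave 9.68%, 7.11% and 3.26%, against 42.7%, 24.6% and 20.8% in XCR1+ cells. CD4 gave 7.65%, 5.09% and 2.82% and CD3 1.55%, 1.15% and 0.68%. CD8a, CD4 and CD3 were each highest at D0 and lowest at D19, as was the share of cells with UMIs of other lineages. In the free tags of barcodes with few RNA UMIs, CD8a stood at 37.5%, 26.5% and 22.7% and CD4 at 11.4%, 11.1% and 6.26%. In B cells the medians were 25.0%, 20.8% and 14.6% for CD8a and 17.3%, 15.2% and 8.68% for CD4. CD3 was highest at D5 in both. The part of other lineages and of free tags in the order was not tested. CD197, the CCR7 protein itself, gave only 0.41%, 0.40% and 0.40%, below its share of 1.92%, 2.32% and 1.99% among the free tags of barcodes with few RNA UMIs, while its median UMI count was 3, 6 and 2 in CD301b- XCR1- cells and 1, 1 and 0 in B cells. F4/80, CX3CR1 and CD115, proteins of macrophages and monocytes, had medians of 0.87%, 0.57% and 1.36%, of 0.57%, 0.53% and 0.41% and of 0.45%, 0.22% and 0.55%.

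**Figure D2:**
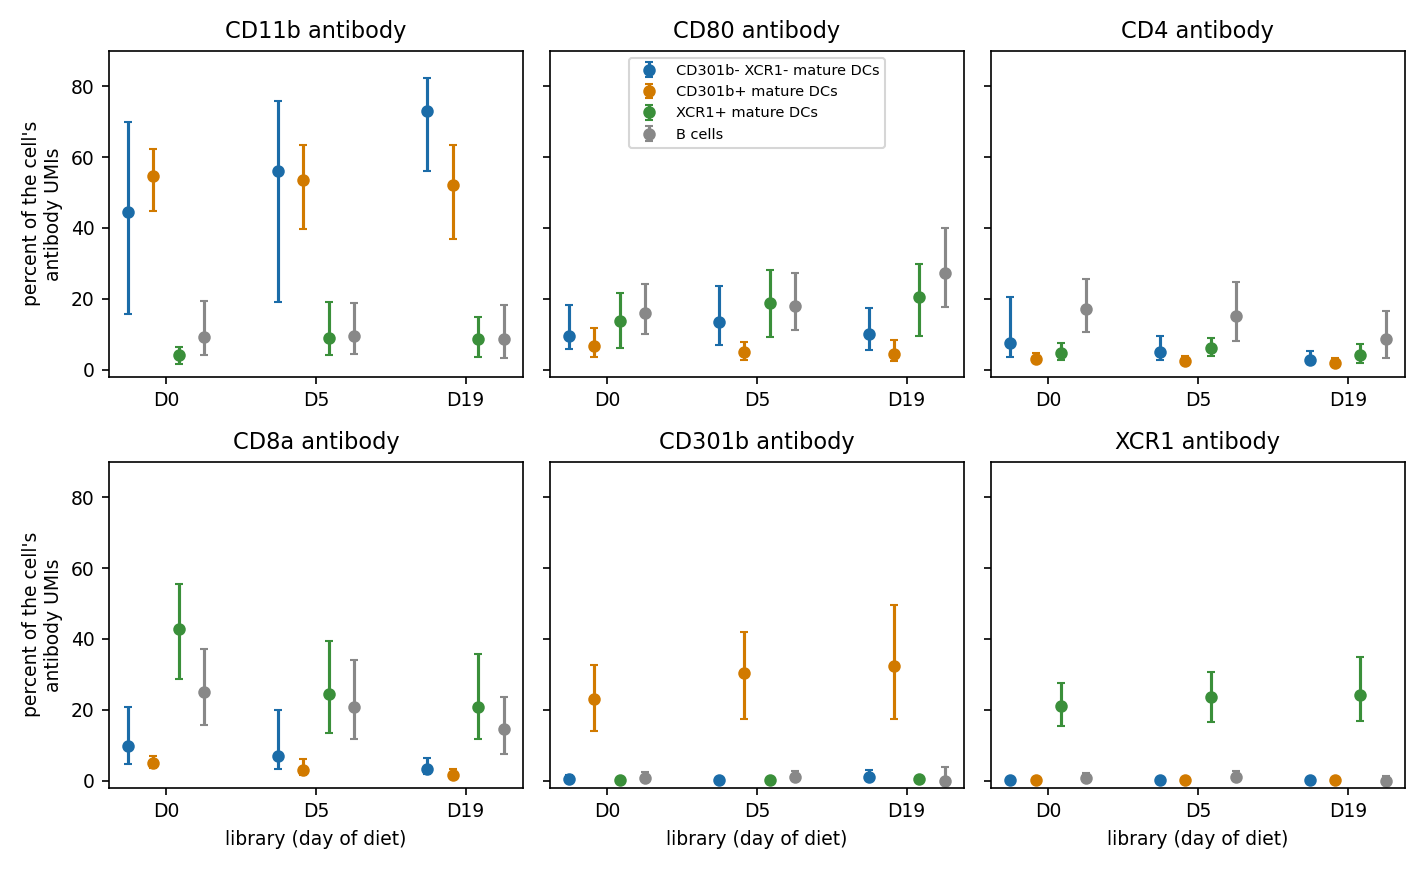
Share of a cell's antibody UMIs (percent) for 6 tags in CD301b- XCR1-, CD301b+ and XCR1+ mature DCs and in B cells at D0, D5 and D19, with points at the median and bars from the 25th to the 75th percentile of cells. The CD11b median of CD301b- XCR1- cells was 44.5%, 56.0% and 73.1%, above that of XCR1+ cells on each day.

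RNA levels between days were compared on the summed UMIs as the difference of log2 (CPM + 10), which understates changes of low genes. From D0 to D5, 53 of 8196 genes were higher by 2-fold or more (0.647%) and 100 were lower (1.22%), together 153 (1.87%). From D5 to D19, 40 of 8396 genes were higher (0.476%) and 111 lower (1.32%), together 151 (1.8%). From D0 to D19, 127 of 7643 genes were higher (1.66%) and 337 lower (4.41%), together 464 (6.07%). With TMM scaling, which assumes that most genes do not change, the last split was 179 higher and 284 lower. The median change of all genes was 0.01, -0.06 and -0.04 on the log2 scale. The comparisons share libraries and are not independent of each other. Fewer cells that express a gene and less RNA of it per cell cannot be told apart in such sums.

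Among chemokines, both ligands of CCR4, a receptor of effector and regulatory T cells, were higher at D19. Ccl17 stood at 54.1 CPM in the D0 library with an interval of 43.5 to 66.4, at 83.3 with 73.3 to 94.2 in the D5 library and at 313 with 291 to 337 in the D19 library. The 3 intervals did not overlap, and D19 was above D0 by 2.33 and above D5 by 1.79 on the log2 scale. The 5 highest cells gave 59.3%, 35.4% and 12.8% of its UMIs on the 3 days. With every cell thinned to 1000 UMIs, 5.53%, 5.06% and 20.5% of the cells held a Ccl17 UMI at D0, D5 and D19, while B cells held it in 0.094%, 0.24% and 0.85%. Without thinning the shares were 11.6%, 22.8% and 44.2%. Ccl17 was also highest at D19 in CD301b+ cells, at 159.7, 413 and 693 CPM, and in the free RNA, at 19.3, 22.0 and 142 CPM.

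Ccl22, the other CCR4 ligand, was at 239, 212 and 458 CPM, and only D19 stood apart, by 1.07 above D5 on the log2 scale. Cxcl16, the ligand of CXCR6 on effector T cells, was at 535, 649 and 844 CPM and Ccl5, a chemokine gene of the mature DC list, at 7721, 6181 and 9727 CPM. Both were highest at D19 and neither reached 2-fold. Ccl3 and Ccl4 were lower by 2-fold or more at D5 than at D0, at 115, 11.8 and 27.7 CPM and at 629, 107 and 68.6 CPM. For Ccl4 the 5 highest cells gave 41.2%, 77.3% and 83.9% of the UMIs, and the free RNA held 563, 138 and 190.2 CPM. Ccl9, another chemokine gene of myeloid cells, was at 15.4, 41.6 and 21.3 CPM and passed 2-fold from D0 to D5. Of 11 chemokine genes tested, 1 was higher and 2 lower from D0 to D5, 2 were higher and 0 lower from D5 to D19, and 1 was higher and 2 lower from D0 to D19, with a median of -0.21 in the last. Without the cells that held UMIs of other lineages 1 of 11 was higher from D5 to D19.

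Few genes of the mature program passed 2-fold between days. Of 16 genes of the mature DC list other than Ccr7 and Fscn1, 0 passed 2-fold from D0 to D5, 1 was higher from D5 to D19 and 1 from D0 to D19, with a median of 0.54 in the last against -0.04 over all genes. The first was Ccl22. The second was Cd200, a ligand of an inhibitory receptor of myeloid cells, at 183, 279 and 412 CPM, with D19 above D0 by 1.13 on the log2 scale. Birc2, which encodes an inhibitor of apoptosis, was at 399, 683 and 788 CPM and lay just below 2-fold, at 0.96. Socs2, a brake on cytokine signalling, was at 342, 448 and 543 CPM, and Anxa3, an annexin gene, at 477, 958 and 725 CPM, highest at D5. The rule's own Ccr7 was at 2103, 1567 and 2205 CPM and Fscn1 at 832, 1134 and 981 CPM.

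Among costimulatory ligands Cd80 and Icosl were lowest at D0, while the median of the list was -0.16 from D0 to D5. Icosl, the ligand of ICOS on T cells, was at 179 CPM without DDC (interval 159 to 200.2), 359.6 at D5 (339 to 382) and 354 at D19 (330.1 to 379). D5 and D19 overlapped and D0 lay below both, by 0.97 and 0.95 on the log2 scale. In cells thinned to 1000 UMIs, 16.6%, 28.9% and 30.1% held an Icosl UMI, against 8.13%, 7.83% and 8.82% of B cells, which express it too, and the free RNA held 44.6, 79.8 and 119.7 CPM. Cd80 was the only gene of the list past 2-fold, at 16.6, 45.2 and 24.7 CPM, with D5 above D0 by 1.05, and Cd86, the other CD28 ligand, was at 61.2, 105 and 58.4 CPM. The CD80 tag too had its highest median at D5 in these cells, but at D0 in CD301b+ cells and at D19 in XCR1+ cells. On each day its median in CD301b- XCR1- cells lay below its share of the free tags, 21.6%, 22.3% and 26.9%. Cd83, a marker of mature DCs, was at 813, 532 and 559 CPM, highest at D0. Cd40, the receptor for T cell help, was at 119, 97.7 and 117 CPM and Tnfsf9, the ligand of 4-1BB, at 103, 69.2 and 95.04 CPM. Of 9 genes tested, 1 was higher from D0 to D5 and 0 in each other comparison, and 0 were lower in each.

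Genes that support type 17 T cell responses gave single members past 2-fold. Itgb8, whose product pairs with integrin alpha v to release active TGF-beta, was at 3.57, 5.57 and 31.5 CPM, with D19 above D0 by 1.61 on the log2 scale. Il1b was at 251, 77.0 and 134 CPM, lowest at D5, and Il12b, which encodes the shared chain of IL-12 and IL-23, at 60.0, 44.9 and 67.3 CPM. Il6 stood at 3.57, 2.29 and 3.84 CPM and Il23a at 0.59, 0 and 0.85 CPM, beside a floor of 3 UMIs at 1.78, 0.98 and 1.28 CPM. Of 10 genes tested from D0 to D19, 1 was higher and 1 lower, with a median of -0.16, and the lower one was Nlrp3, an inflammasome sensor, at 17.8, 5.25 and 3.41 CPM. Among ligands and enzymes that restrain T cells, Aldh1a2, which makes retinoic acid, was at 67.1, 27.9 and 64.8 CPM, lowest at D5, and Cd274, which encodes PD-L1, at 156, 104 and 99.3 CPM. In that list 1 of 11 genes, Cd200, was higher from D0 to D19 and 0 lower.

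**Figure D3:**
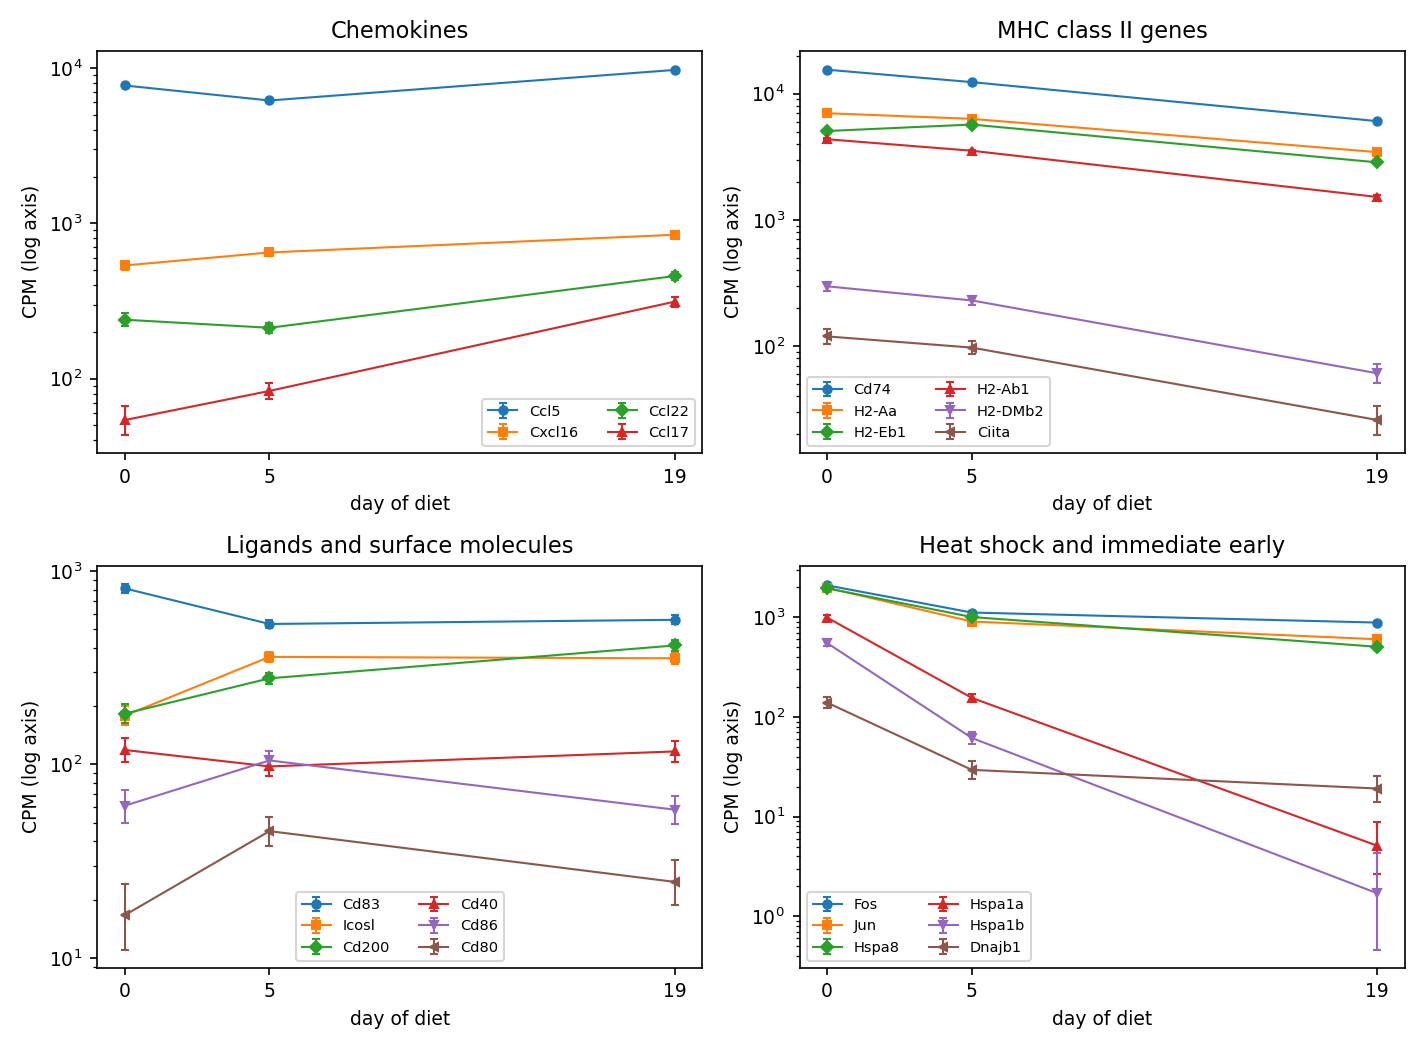
Levels of selected genes of 4 groups in CD301b- XCR1- mature DCs against the day of diet (CPM on a log axis, exact Poisson 95% intervals as bars, 1 library a day). Ccl17 was highest at D19, Icosl was higher at D5 and D19 than at D0, and the MHC class II genes and the heat shock and immediate early genes were lowest at D19.

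Of receptors for migration and retention, 1 of 11 genes was higher from D0 to D19, Itgb8 again, and 1 was lower. The lower one was Itgb2, the common chain of leukocyte integrins, at 63.6, 28.5 and 24.3 CPM. Icam1, a ligand of LFA-1, was at 193, 202 and 156 CPM. The NF-kB list had 1 of 17 genes higher from D0 to D19, Map3k14, the kinase that starts the noncanonical pathway, at 38.0, 58.0 and 93.8 CPM. It had 1 lower, Tnfaip2, at 181, 55.7 and 65.2 CPM. Il7r, a receptor chain for IL-7 and TSLP that also stood in the T cell list, was at 159.8, 240.0 and 411 CPM, against 247, 198 and 355 CPM in CD301b+ cells and 103, 125 and 207 CPM in the free RNA.

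MHC class II presentation had a median of -1.35 on the log2 scale from D0 to D19. The dissociation list was close to it, at -1.34, and which of them was lower changed with the setting. Of the marker lists of cell types, plasmacytoid DC, at -1.75, B cell, at -1.57 over 2 genes, and neutrophil, at -1.51 for 1 gene, were lower. These genes encode the molecules that show peptides to CD4+ T cells, the chaperones that load them and the transactivator CIITA that switches them on. H2-Ab1, a chain of the I-A molecule, was at 4355 CPM in the D0 library (interval 4256 to 4456), 3531 in D5 (3464 to 3598) and 1518 in D19 (1469 to 1569). Cd74, the invariant chain, was at 15478, 12341 and 6056 CPM, and H2-Aa, the partner chain of I-A, at 6999, 6314 and 3443 CPM. All 3 genes had their lowest level at D19 and differed from D0 by -1.51, -1.35 and -1.02 on the log2 scale. Ciita was at 119, 97.4 and 26.0 CPM, and H2-DMb1, a chain of the peptide exchange factor H2-M, at 129, 83.6 and 26.4 CPM. H2-Eb1, another class II chain gene, was at 5058, 5693 and 2855 CPM, highest at D5. The protease Ctss and the reductase Ifi30, which prepare peptides, were at 718, 819 and 809 CPM and 1778, 1616 and 1200.1 CPM. H2-Eb1, H2-Oa, Ctss and Ifi30 did not pass 2-fold from D0 to D19.

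Of the 13 class II genes, 1 was lower by 2-fold or more from D0 to D5, 8 from D5 to D19 and 9 from D0 to D19, and 0 were higher in each. The medians were -0.27, -1.03 and -1.35 on the log2 scale. Without the cells that held UMIs of other lineages, 6 of 12 tested genes were lower from D5 to D19 and 9 of 12 from D0 to D19. The count from D5 to D19 was 5 with Ccr7 and Fscn1 at 2 or more UMIs and 4 with a pseudocount of 50 CPM. The summed level of the list was 35512, 31231 and 16195 CPM in CD301b- XCR1- cells. It was lowest at D19 in the other subsets as well, at 27824, 24788 and 14935 CPM in CD301b+ cells and 17943, 10373 and 7548 CPM in XCR1+ cells, and in the free RNA, at 19251, 15482 and 10006 CPM. With free RNA subtracted at 5% of each sum, 9 of the 13 genes were lower from D5 to D19 and 9 from D0 to D19, with medians of -1.04 and -1.36. MHC class I presentation genes, which serve CD8+ T cells, had 0 of 13 past 2-fold in each comparison, with a median of 0.22 from D0 to D19. H2-K1, a class I heavy chain gene, was at 2336, 2787 and 2111 CPM.

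Promoters of 3 class II genes are shown because 9 of the 13 list genes were lower by 2-fold or more from D0 to D19. H2-Aa and H2-DMb1 were among these lower genes, and H2-Eb1 was not. Class II promoters are known to share an X box and a Y box, on which CIITA acts. Of the 13 genes, 9 had a promoter of 300 bases in a RefSeq table for build GRCm38.p6, from 250 bases before the start to 50 after it. The Y box core GATTGG, searched on both strands, was in 7 of these 9 and in 16.1% of all 32851 promoters of the table. The 7 included H2-Eb1 and H2-Oa, which did not pass 2-fold from D0 to D19. The X box, searched by its consensus on both strands, was in 2 of the 9, H2-DMb1 and H2-Eb1, and in 0.0548% of all promoters. A match is a description of letters and not a bound site. The core or its reverse complement stands in capitals. The windows lie at chr17:34287774-34288073 on the minus strand for H2-Aa, chr17:34305617-34305916 on the plus strand for H2-Eb1 and chr17:34152941-34153240 on the plus strand for H2-DMb1.
H2-Aa: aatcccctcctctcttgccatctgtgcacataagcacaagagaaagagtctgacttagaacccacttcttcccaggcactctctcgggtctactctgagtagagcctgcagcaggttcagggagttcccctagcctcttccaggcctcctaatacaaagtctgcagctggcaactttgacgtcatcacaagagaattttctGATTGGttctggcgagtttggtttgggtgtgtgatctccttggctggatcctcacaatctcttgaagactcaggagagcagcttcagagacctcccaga
H2-Eb1: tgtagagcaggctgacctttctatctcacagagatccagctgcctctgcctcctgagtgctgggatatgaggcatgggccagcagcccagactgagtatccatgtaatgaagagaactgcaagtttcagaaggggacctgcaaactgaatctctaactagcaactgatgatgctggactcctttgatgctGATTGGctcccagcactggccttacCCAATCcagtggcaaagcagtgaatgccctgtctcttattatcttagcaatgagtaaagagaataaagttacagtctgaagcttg
H2-DMb1: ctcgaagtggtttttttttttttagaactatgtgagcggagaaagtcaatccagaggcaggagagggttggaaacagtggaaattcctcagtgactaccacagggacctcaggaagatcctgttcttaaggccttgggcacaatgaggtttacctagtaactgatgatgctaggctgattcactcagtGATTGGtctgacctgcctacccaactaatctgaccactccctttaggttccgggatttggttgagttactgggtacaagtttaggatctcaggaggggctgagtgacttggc

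Genes of the response to cell dissociation were highest at D0. These immediate early and heat shock genes answer to digestion and handling as well as to signals in tissue. Hspa1a, an inducible heat shock chaperone, was at 996, 156 and 5.11 CPM and Hspa1b at 553, 61.6 and 1.70 CPM. Jun and Fos, the subunits of the factor AP-1, were at 1982, 909 and 603 CPM and 2097, 1118 and 887 CPM. All 4 were highest at D0 and lowest at D19. In the list 7 of 14 genes were lower by 2-fold or more from D0 to D5 and 9 from D0 to D19, and without the cells that held UMIs of other lineages 7 of 14 and 9 of 14. The summed list was at 15686, 7903 and 6973 CPM in CD301b- XCR1- cells, 13475, 6339 and 6745 CPM in CD301b+ cells, 7906, 5047 and 4346 CPM in XCR1+ cells and 9351, 4480.1 and 4955 CPM in the free RNA, each highest at D0. Day of diet and handling of a library cannot be told apart.

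**Figure D4:**
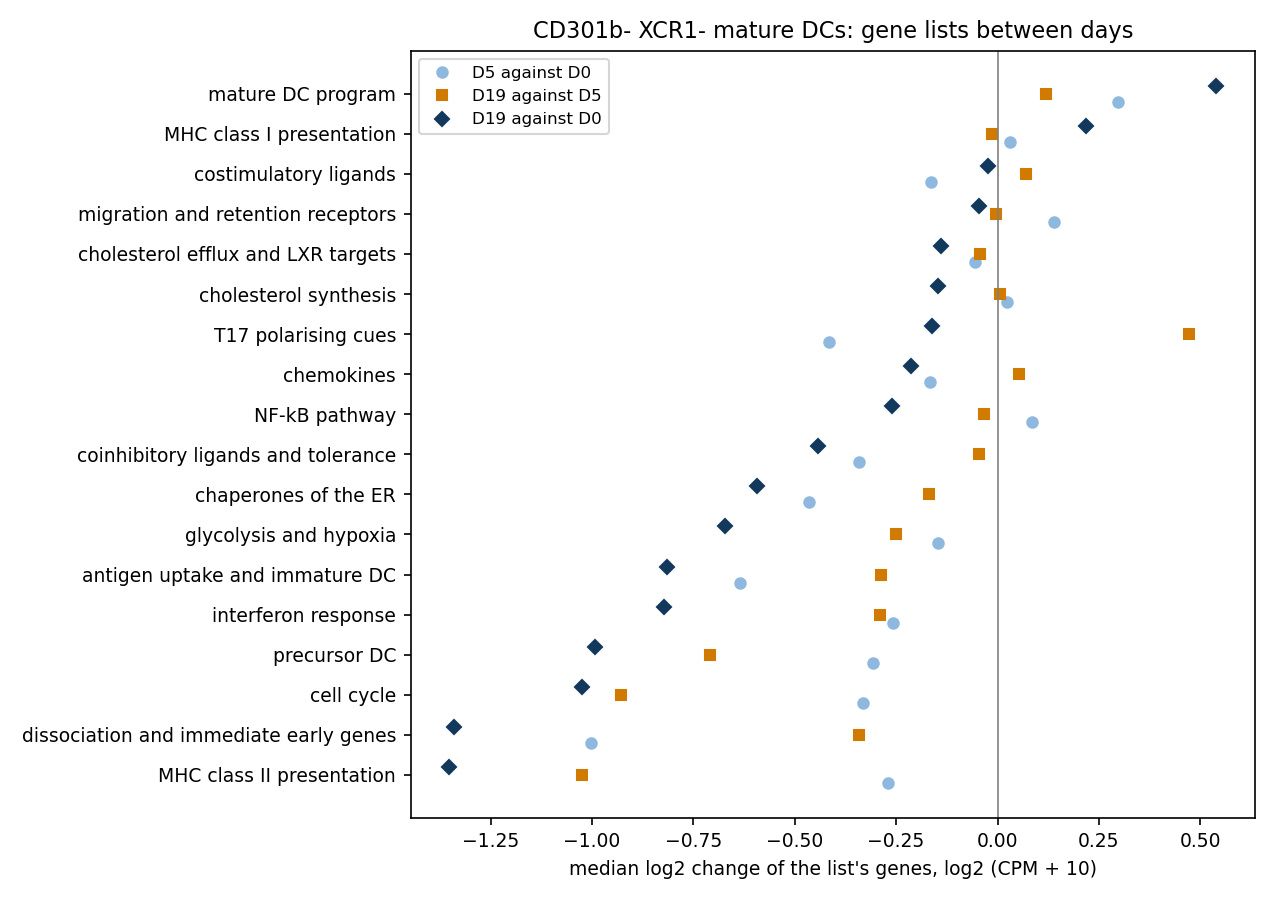
Median change of the genes of the 18 lists that are not markers of a cell type, between days in CD301b- XCR1- mature DCs (difference of log2 (CPM + 10), 1 point for each of 3 comparisons, 1 library a day). From D0 to D19 the median was -1.35 for MHC class II presentation, -1.34 for the dissociation list and 0.54 for the mature DC list, against -0.04 over all genes.

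Several lists of other or less mature cells had genes that were lower at D19, and most of these counts moved with the cells that held UMIs of other lineages. In the plasmacytoid DC list 6 of 8 genes were lower by 2-fold or more from D0 to D19, and without those cells 0 of 2 tested. Siglech, a lectin of plasmacytoid DCs, was at 150.3, 126 and 23.9 CPM. Ly6d was at 405, 156 and 31.1 CPM, below its free RNA level of 1040.4, 872 and 421 CPM. Without those cells the Ly6d difference from D0 to D5 turned to 0.39 on the log2 scale. In the precursor DC list 4 of 9 genes were lower, and 1 of 5 without those cells, with Cd7 at 181, 82.9 and 39.6 CPM. In the list for antigen uptake 5 of 10 were lower, and 2 of 5 without them. Lyz2, the lysozyme gene of myeloid cells, was at 304, 173 and 115 CPM. Without those cells its difference from D0 to D19 turned to 0.42 on the log2 scale. The limit that picks those cells uses Siglech, Lyz2 and other genes of these lists, so that their values without the cells are set in part by the limit. The macrophage and monocyte list had 3 of 7 genes lower, and 2 of 2 without them. With Ccr7 and Fscn1 at 2 or more UMIs, 1 of 8 genes of the antigen uptake list and 0 of 6 of the macrophage and monocyte list were lower, and with a pseudocount of 50 CPM the antigen uptake count was 1 of 10. Without the highest doublet scores 3 of 6 plasmacytoid DC genes and 5 of 7 macrophage and monocyte genes were lower.

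Of cDC1 genes 4 of 8 were lower by 2-fold or more from D0 to D19, and 2 of 6 without the cells of other lineages. Of cDC2 genes 3 of 9 were lower, and 1 of 7 without them. Without the highest doublet scores 2 of 6 cDC1 genes and 1 of 7 cDC2 genes were lower. With a pseudocount of 50 CPM 0 of 8 cDC1 genes, 0 of 9 cDC2 genes and 1 of 8 cell cycle genes were lower. Klf4, a transcription factor of cDC2, was at 279, 134 and 118 CPM, and S100a4, a calcium-binding protein gene, at 1533, 3061 and 1896 CPM, highest at D5. Of cell cycle genes 4 of 8 were lower, and 2 of 6 without the cells of other lineages. Stmn1, whose product destabilises microtubules, was at 111, 70.2 and 8.95 CPM. The 5 highest cells gave 60.2%, 66.8% and 90.5% of its UMIs, so that few cells set its level. Ccnd1, which encodes cyclin D1 and was in no list, was at 586, 481 and 103 CPM, above its free RNA of 95.1, 53.8 and 24.1 CPM on each day, with 17.3%, 9.47% and 22.0% of its UMIs in the 5 highest cells.

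Interferon response genes were lower at D19 than at D0 in 5 of 12 tested, and in 4 of 11 without the cells of other lineages. Ifi27l2a was at 114, 88.8 and 29.4 CPM against 532, 309 and 247 CPM in the free RNA, and Usp18, which removes ISG15 from proteins, at 78.4, 36.7 and 33.2 CPM against 20.6, 12.7 and 14.5 CPM. Of glycolysis and hypoxia genes 4 of 15 were lower, and 3 of 13 without those cells. Hk2, the hexokinase that opens glycolysis, was at 96.8, 22.6 and 26.8 CPM and Vegfa, a vessel growth factor, at 41.0, 23.9 and 7.25 CPM. Hk2 was low on both diet days and Vegfa lowest at D19. Chaperones of the endoplasmic reticulum were lower in 2 of 14, and in 1 of 13 without those cells, with Hspa5, the main chaperone there, at 371, 212 and 165 CPM. Cholesterol synthesis genes had 0 of 13 past 2-fold in each comparison, with a median of -0.15 in the last. In the list for cholesterol efflux 1 of 7 was higher, Apoe, at 25.0, 62.9 and 64.8 CPM, below its free RNA of 151, 256 and 206 CPM. Without the cells of other lineages the Apoe difference went from 1.06 to -0.067 from D0 to D5, and from 1.10 to 0.86 from D0 to D19. With a pseudocount of 50 CPM 3 of 12 interferon response genes, 0 of 15 glycolysis genes and 0 of 14 chaperones were lower. For the chaperones the count was 1 with Ccr7 and Fscn1 at 2 or more UMIs, 4 with a pseudocount of 1 CPM and 5 with the tag share limit at 5%.

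Markers of other cell types also differed between days. From D0 to D19 the T cell list had 1 of 9 genes higher, Il7r, and 2 lower, Cd8a at 81.4, 22.6 and 3.84 CPM and Cd4 at 32.1, 15.4 and 5.11 CPM. The B cell list had 1 of 2 lower, Ighm, at 214, 126 and 40.9 CPM against 873, 641 and 416 CPM in the free RNA. The NK list had 2 of 5 lower, the neutrophil list 1 of 1 and the plasma cell and endothelial lists 0 of 2 and 0 of 1. The stromal list had 1 of 2 higher, Dcn, at 0.59, 0.98 and 33.2 CPM, with 98.7% of its D19 UMIs from 5 cells. Without the cells that held UMIs of other lineages, 1 of 2 tested T cell genes was lower and no NK gene had enough UMIs to be compared. With a pseudocount of 50 CPM the T cell count was 1 and the NK count 0.

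Some of the 8 largest differences in each direction ran in the order of diet days. Cd302, a C-type lectin gene, was at 25.0, 56.7 and 178 CPM and Clu, which encodes the extracellular chaperone clusterin, at 123, 189 and 449 CPM. Rnaset2a, a ribonuclease gene, was at 67.7, 75.7 and 261 CPM and Cpne2, a copine gene, at 44.6, 86.6 and 178 CPM. All 4 were lowest at D0 and highest at D19, with differences between these of 2.43, 1.79, 1.80 and 1.79 on the log2 scale. The free RNA had the same order, with 6.87, 12.2 and 59.4 CPM of Cd302, 22.7, 26.0 and 106 CPM of Clu, 50.7, 53.5 and 139 CPM of Rnaset2a and 5.55, 7.39 and 29.0 CPM of Cpne2. Others were higher on both diet days than at D0. These were Fam53b at 38.6, 142 and 101 CPM, Arhgap28 at 37.4, 129.8 and 124 CPM and Dkk2, a Wnt inhibitor gene, at 10.7, 69.2 and 46.5 CPM. Kctd14 was at 12.5, 55.7 and 22.2 CPM, highest at D5. H1fx, a linker histone gene, had no UMI at D0 and was at least 10.9-fold higher at D5 and at least 15.8-fold higher at D19, against a floor of 3 UMIs in the D0 library. Pla2g7, a phospholipase gene, was at 54.7, 20.3 and 81.8 CPM and Fndc5 at 16.6, 3.61 and 33.2 CPM, both lowest at D5.

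For some further genes among them, given first, a few cells held most of the UMIs. Chil3, a chitinase-like protein gene of myeloid cells, was at 0.59, 34.4 and 13.6 CPM with 100% of its D5 UMIs in 5 cells or fewer, as for Fabp6, at 0, 26.9 and 0 CPM. Ifitm1 was at 30.3, 137 and 25.6 CPM with 62.8% in 5 cells at D5, and Cxcl1, a neutrophil chemokine gene, at 91.5, 4.59 and 68.2 CPM with 84.4% in 5 cells at D0. Xcl1, the ligand of XCR1, was at 182, 42.0 and 49.0 CPM with 71.3%, 82.8% and 93.0% in 5 cells. The pancreatic enzyme genes Ctrb1 and Prss2 were at 50.3 and 31.1 CPM at D19, where the free RNA held 5801 and 3495 CPM. AY036118, at 399, 1121 and 106 CPM, and Lars2, at 169.9, 369 and 49.9 CPM, stood at 1975, 2521 and 382 and 252, 672 and 184 CPM in the free RNA, highest at D5 in both. Atp1b1, a sodium pump subunit gene, was at 130.1, 131 and 21.7 CPM, lowest at D19. Cfp, which encodes the complement factor properdin, was at 124, 24.6 and 12.8 CPM. The heat shock genes Dnajb1 and Hsph1 were at 139.6, 29.5 and 19.2 CPM and 62.4, 11.1 and 1.28 CPM. Cfp, Dnajb1 and Hsph1 were highest at D0, where their 5 highest cells gave 21.6%, 40.4% and 25.7% of the UMIs.

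The cells with a CD11b share of 10% or more and those below it had different RNA levels, given here as a description. The 161, 300 and 465 CD11b-high cells held 586, 576 and 350.0 CPM of the plasmacytoid DC list, and the 38, 56 and 37 CD11b-low cells 4553, 2103 and 651 CPM. Siglech was at 46.7, 85.3 and 24.2 CPM in CD11b-high and 569, 348 and 20.5 CPM in CD11b-low cells, apart at D0 and D5 and close at D19. Irf8, a transcription factor of cDC1 and plasmacytoid DCs, was at 196, 174 and 131 CPM in CD11b-high and 776, 319 and 292 CPM in CD11b-low cells. Lyz2 went the other way, at 379, 203 and 125 CPM against 3.00, 6.37 and 10.2 CPM. Ccl17 was at 65.2, 97.3 and 338 CPM in CD11b-high cells and at 8.99, 6.37 and 35.9 CPM in CD11b-low cells. In CD11b-low cells these levels rested on 3, 3 and 7 UMIs, and their intervals of 1.85 to 26.3, 1.31 to 18.6 and 14.4 to 73.9 CPM overlapped.

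The subsets of mature DCs were compared within libraries, with the 3 libraries as replicates and as a block. The p-values below measure how far a difference recurs across libraries that also differ in day of diet. Against CD301b+ cells, edgeR's quasi-likelihood test with Benjamini-Hochberg adjustment over 6682 genes called 13 genes higher in CD301b- XCR1- cells (0.195%) and 8 lower (0.12%), together 21 (0.314%). At an unadjusted p under 0.05 there were 590 genes. Without the D0 library 9 genes were called, without D5 12 and without D19 135. The split between directions moved with the setting, to 65 higher and 70 lower without D19, to 6 higher and 21 lower by DESeq2 and to 116 higher and 41 lower with no filter on low counts.

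Lyz2 had the smallest p of the genes that were higher in CD301b- XCR1- than in CD301b+ cells. It was at 304, 173 and 115 CPM in CD301b- XCR1- cells at D0, D5 and D19 and at 3.63, 12.1 and 21.4 CPM in CD301b+ cells. Few cells held it, with a Lyz2 UMI in 6.53%, 6.74% and 5.18% of CD301b- XCR1- cells and in 2.87%, 2.89% and 2.24% of B cells, which should lack it. After thinning to 1000 UMIs the shares were 2.01%, 2.81% and 1.79% against 1.17%, 1.16% and 1.10%. The sums did not overlap, with a difference of 3.20 on the log2 scale (SE 0.34, edgeR adjusted p = 0.000201). Ms4a6c, a membrane protein gene of myeloid cells, was at 215, 119 and 41.8 CPM against 3.63, 14.5 and 12.7 CPM, with a difference of 2.72 (SE 0.39), and its relative Ms4a4c differed by 2.98 (SE 0.42). Prg2, known as the major basic protein gene of eosinophils, was at 72.5, 51.8 and 5.11 CPM, with 1 UMI in all CD301b+ cells. Plbd1, a phospholipase gene, differed by 1.73 (SE 0.34), Mdk, which encodes the growth factor midkine, by 2.42 (SE 0.38), Hook1, a linker of cargo to microtubules, by 3.12 (SE 0.60) and Ccl4 by 2.30 (SE 0.42). The others called higher were the globin genes Hba-a1, Hba-a2 and Hbb-bs, and Ltb and Rac2, named after their values were seen. Without the cells that held UMIs of other lineages 21 genes were called, 15 of them shared. Ms4a6c still differed by 2.76, Plbd1, at 1.63, was not called, and Lyz2 was not tested.

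Ccl17 was lower in CD301b- XCR1- than in CD301b+ cells, at 54.1, 83.3 and 313 CPM against 159.7, 413 and 693 CPM. Within each library the CD301b+ cells were higher, although the ranges overlapped across days, and the difference was -1.81 on the log2 scale (SE 0.28, edgeR adjusted p = 0.00498). Cxcl1 was at 91.5, 4.59 and 68.2 CPM against 523, 74.9 and 188 CPM, a difference of -2.46 (SE 0.36), and Clu at 123, 189 and 449 CPM against 359, 570.3 and 625 CPM, a difference of -1.30 (SE 0.22). Cd44, the hyaluronan receptor of activated cells, was at 173, 183 and 164 CPM against 468, 365 and 238 CPM, without overlap, a difference of -1.12 (SE 0.19). Mir155hg, the host of miR-155, differed by -1.19 (SE 0.23), Crip1 by -0.93 (SE 0.17), Cdkn1a, the cycle inhibitor p21, by -0.90 (SE 0.17) and Serpinb9b, a protease inhibitor gene with few UMIs, by -2.91 (SE 0.55). By library, at D0, D5 and D19, the differences of log2 (CPM + 10) were 2.64, 2.07 and 0.59 for Plbd1, 2.55, 2.21 and 0.66 for Mdk and -1.29, -0.82 and -0.34 for Crip1. The smallest difference was at D19 in 15 of these 16 named genes and in 10 of the 16 named against XCR1+ cells. Among all tested genes this was so in 51.0% and 50.9%. The named genes were chosen by the same differences, so that these counts are a description only. CD301b+ cells were also fewer at D0 and D5, at 34 and 48, than at D19, at 246. A change of the difference with day was not tested. Ccl22 differed by -0.99 (SE 0.24, edgeR adjusted p = 0.0904) and was not called.

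**Figure D5:**
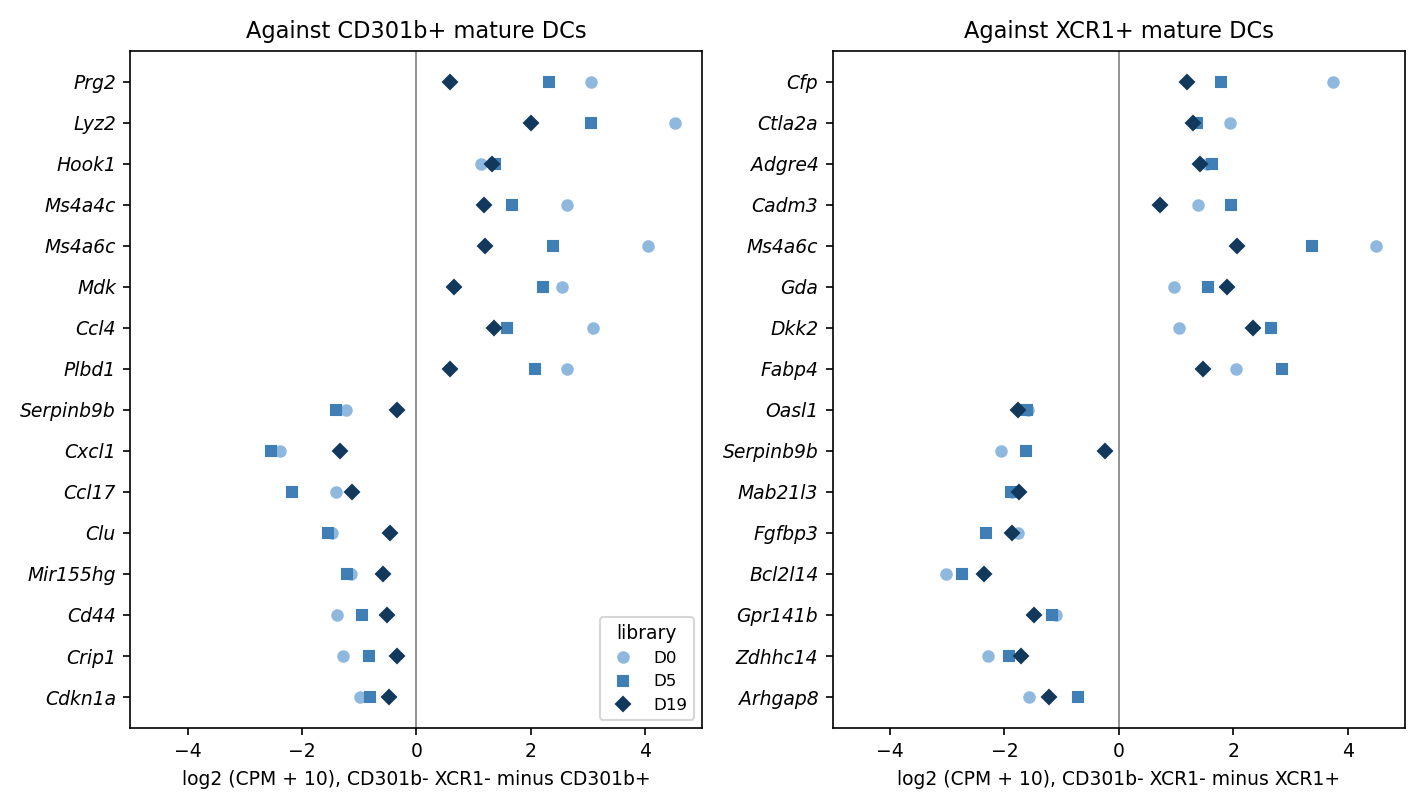
Differences between CD301b- XCR1- mature DCs and CD301b+ (left) or XCR1+ (right) mature DCs for the named genes (difference of log2 (CPM + 10), 1 point for each of the 3 libraries). Against CD301b+ cells Lyz2 was higher and Ccl17 lower in all 3 libraries.

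The gene lists had few other calls between these subsets. Against CD301b+ cells the chemokine list had 1 of 11 genes higher (Ccl4) and 1 lower (Ccl17), and the antigen uptake and macrophage lists had Lyz2. Every other list with a tested gene had 0 calls, among them MHC class II presentation, with a median of 0.62, the mature DC list, with -0.29, and cDC2 genes, with 0.04. Ciita was at 119, 97.4 and 26.0 CPM against 43.5, 31.4 and 7.91 CPM, a difference of 1.48 (SE 0.42, edgeR adjusted p = 0.197). Icosl differed by -0.10 (SE 0.17) and Cxcl16 by -0.48 (SE 0.16), and neither was called. A missed threshold does not show that the levels were alike.

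Against XCR1+ cells the same test called 519 genes higher (7.77%) and 542 lower (8.11%), together 1061 (15.9%), and 1857 genes had an unadjusted p under 0.05. Without the D0 library 648 genes were called, without D5 373 and without D19 984. Sirpa, the cDC2 receptor for CD47, was at 56.4, 45.2 and 34.5 CPM in CD301b- XCR1- cells and at 0, 4.89 and 3.46 CPM in XCR1+ cells, a difference of 3.57 (SE 0.50, edgeR adjusted p = 0.000119). S100a4 was at 1533, 3061 and 1896 CPM against 121, 927 and 397 CPM, a difference of 2.18 (SE 0.25). Neither gene overlapped between the subsets. Klf4 differed by 1.57 and Cebpb, a transcription factor of myeloid cells, by 1.62. Of cDC2 genes 4 of 8 were higher and 0 lower, and of cDC1 genes 0 were higher and 3 of 8 lower, namely Clec9a, Irf8 and Cd24a. The subsets were set apart by the tag of XCR1, a cDC1 protein, so that this split between branches was in part set by the choice. Of macrophage and monocyte genes 4 of 5 were higher, Lyz2, Cd68, Ly6c2 and Plac8. In CD301b- XCR1- cells the 10 highest cells gave 63.4%, 68.5% and 75.4% of this list's UMIs on the 3 days. The list summed to 913, 482 and 370 CPM in them, below the 1284, 876 and 663 CPM in the free RNA.

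MHC class II and class I genes differed from XCR1+ cells in opposite directions. H2-Ab1 was at 4355, 3531 and 1518 CPM against 1238, 631 and 520.3 CPM, without overlap, a difference of 1.72 (SE 0.18, edgeR adjusted p = 5.19e-06). Ciita was at 119, 97.4 and 26.0 CPM against 2.95, 0 and 12.7 CPM. Of 13 class II genes 8 were higher and 0 lower, with a median of 1.30. Of 13 class I genes 0 were higher and 12 lower, with a median of -0.82. B2m, the common light chain of class I, differed by -0.55 (SE 0.14) and Tap1, a peptide transporter subunit, by -1.09 (SE 0.19). Cholesterol synthesis genes were lower in 9 of 12 and higher in 0. Sqle, the squalene epoxidase gene, was at 13.1, 13.4 and 10.7 CPM against 59.1, 48.9 and 23.1 CPM, a difference of -1.91 (SE 0.31).

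Signals to T cells differed gene by gene. Il12b was at 60.0, 44.9 and 67.3 CPM against 399, 103 and 349.5 CPM in XCR1+ cells, a difference of -2.39 (SE 0.24, edgeR adjusted p = 4.25e-06). Itgb8 was at 3.57, 5.57 and 31.5 CPM against 62.0, 68.5 and 56.5 CPM, a difference of -2.49 (SE 0.45). In both genes the XCR1+ cells were higher in each library, with no overlap. Il1b went the other way, at 251, 77.0 and 134 CPM against 0, 2.45 and 17.3 CPM, a difference of 3.87 (SE 0.47). Of the type 17 list 4 of 9 genes were higher and 3 lower. Ccl5 was at 7721, 6181 and 9727 CPM against 12173, 14924 and 14166 CPM and differed by -1.05, Cxcl16 by -0.52 and Ccl3 by 3.78. Of the chemokine list 6 of 11 were higher and 3 lower. Among costimulatory ligands Tnfsf9 and Cd48 were higher, Cd48 by 1.03, and Cd40 and Cd70 differed by -0.86 and -1.35. Aldh1a2 differed by -1.97 (SE 0.32). The mature DC list had 1 of 16 genes higher, Tbc1d4, and 7 lower. The dissociation list had 9 of 14 genes higher and 1 lower, with Fos at 1.76, and the part of handling in these differences was not tested.

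The counts of all lists against XCR1+ cells stand beside 7.77% of all tested genes called higher and 8.11% called lower. Of the other lists, the NF-kB list had 3 of 17 genes higher and 1 lower, and the list of migration receptors 3 of 10 higher and 3 lower. The interferon list had 4 of 12 higher and 0 lower, among them Ly6e and Ifi27l2a, which were more abundant in the free RNA than in the CD301b- XCR1- cells. The tolerance list had 1 of 10 higher, Tgfb1, and 2 lower, Il4i1 and Aldh1a2. The glycolysis list had 2 of 13 higher and 3 lower, the precursor DC list 4 of 8 higher and 0 lower, and the plasmacytoid DC list 1 of 7 higher, Tcf4. Markers of other cell types were also higher, 2 of 8 in the T cell list, Trbc2 and Cd3g, and 1 of 3 in the NK list, Klrb1c. Without the cells that held UMIs of other lineages 977 genes were called against XCR1+ cells, 869 of them shared with the 1061.

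The largest fitted differences from XCR1+ cells were in genes nearly absent on the other side. Cfp had 313 UMIs in CD301b- XCR1- cells, 208 of them at D0, and 0 in XCR1+ cells. Over the pooled libraries it was at least 23.8-fold higher against a floor of 3 UMIs over the group. By library Cfp was at 124, 24.6 and 12.8 CPM, beside floors of 3 UMIs in XCR1+ cells at 8.86, 7.34 and 3.46 CPM. On the pooled floor Adgre4, a relative of F4/80, was at least 10.3-fold higher and Cadm3, an adhesion molecule gene, at least 9.96-fold higher. Ctla2a, a protease inhibitor gene, was at least 9.88-fold higher. At D0, D5 and D19 Adgre4 was at 19.01, 20.98 and 16.6 CPM and Cadm3 at 16.04, 29.2 and 6.39 CPM. Ctla2a was at 28.5, 15.7 and 14.5 CPM, beside the same library floors. The bounds hold for the pooled sums only and were not computed with a library left out. Ms4a6c had 3 UMIs in all XCR1+ cells, Dkk2 and Fabp4, a fatty acid carrier gene, 2 each and Gda, the guanine deaminase gene, 1. Bcl2l14, a BCL2 family gene, was lower, at 39.2, 29.2 and 79.7 CPM against 390.0, 252 and 448 CPM, a difference of -3.12 (SE 0.26, edgeR adjusted p = 6.37e-07). Fgfbp3 differed by -3.14, Zdhhc14, a palmitoyltransferase gene, by -3.03, Mab21l3 by -3.21 and Oasl1, an interferon-induced gene, by -3.85. Serpinb9b, Gpr141b and Arhgap8 were lower too, with 18, 21 and 19 UMIs in all CD301b- XCR1- cells. Of the 16 named genes, all but Serpinb9b had no overlap between the subsets over the 3 libraries. This also held for 2087 of the 6682 tested genes. The 16 were picked from the same sums as large differences of 1 sign, so that their lack of overlap was largely set by the choice. Genes with 0 UMIs in XCR1+ cells could pass the low-count filter only through the other subsets.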

How the data were processed

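Raw UMI counts per gene and per antibody tag were read from the matrices deposited by the authors for 3 LN CITE-seq libraries, unfiltered for cells, from Cell Ranger 4 per the file headers and build mm10 per the submitters' processing notes. The libraries held 32285 genes and 11 tags. The γδ T cell pools of the series were not used here. Cells and subsets were chosen as given above, and the cells, gene lists and comparisons were chosen with earlier results of these data known.

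Between days, with 1 library each, genes with 30 or more UMIs over both libraries were compared as log2 (CPM + 10), with 2-fold as the limit and without a test. Between subsets, UMIs were summed per library and subset into 9 sums and tested in 1 fit with edgeR 4.0.16 (R 4.3.3, filterByExpr, TMM factors, quasi-likelihood test, library as a block, Benjamini-Hochberg adjustment, threshold 0.05). The libraries are paired by design, since each holds all 3 subsets. Ccr7, Fscn1, Cd3e and Cd79a were left out of this test. Shares carry Clopper-Pearson intervals and UMI sums exact Poisson intervals, at 95%, from scipy 1.17.1. The floor was 3 UMIs. Free RNA was taken from barcodes with fewer than 100 UMIs. Shares of cells with a UMI were taken after thinning to 1000 UMIs per cell.

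Doublets were not removed from the main values. As an alternative, the cells with the highest Scrublet scores (scanpy 1.11.5) were left out at 0.8% per 1000 cells, which took 18, 16 and 26 of the chosen cells at D0, D5 and D19. Further alternatives changed the tag share limit, the minimum UMIs of markers, cells and tags, the mitochondrial limit, pseudocount, fold, scaling, free RNA, low-count filter, DESeq2 1.42.0 as test, the library block and each library. Leaving out cells with UMIs of other lineages was added after seeing the data. Named genes were the 8 largest differences in each direction of each comparison (mitochondrial, ribosomal, immunoglobulin, T cell receptor, globin and unnamed gene models left out), for subsets those called and of 1 sign in all libraries, together with the antibody targets, Icosl, Cxcl16, Icam1 and the highest or most changed genes of the lists. The scripts were tested on simulated data.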

Additional observations from a re-analysis of the deposited data

How the results depend on the processing

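Counts of genes past a limit depended most on the limit itself. With a pseudocount of 1 CPM, 572, 567 and 1113 genes passed 2-fold from D0 to D5, D5 to D19 and D0 to D19, with 50 CPM 35, 33 and 108, and at 1.5-fold 952, 812 and 1673, against 153, 151 and 464. The tag share limit moved the share among mature DCs, from 57.6%, 70.8% and 43.6% at 5% to 75.8%, 82.9% and 62.5% at 15%, and thinning to 2000 UMIs gave 61.1% at D0. The share with CD11b was 86.6% at D0 without cells holding UMIs of other lineages and 96.7% at D19 with the limit at 5%. Under every setting run D5 had the highest and D19 the lowest share among mature DCs, and D19 the highest share with CD11b, while the order of D0 and D5 in the CD11b share turned without other-lineage cells and without the highest doublet scores. Against CD301b+ cells 157 genes were called with no filter on low counts, 27 by DESeq2 (7 of them shared with the 21) and 9 to 135 with a library left out. Against XCR1+ cells 749 were called by DESeq2 and 373 to 984 with a library left out. The library block pairs the subsets, and without this replicate block 1 gene was called against CD301b+ cells and 428 against XCR1+ cells, in place of 21 and 1061.

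Without cells holding UMIs of other lineages the sign turned for Apoe (-0.067), Ly6d (0.39) and Ncr1 (0.13) from D0 to D5, for Ccr9 (0.048) from D5 to D19, and for Irf8 (0.10), Lyz2 (0.42), Naaa (0.18) and Ncr1 (0.074) from D0 to D19. Without the highest doublet scores it turned for Klk1 from D0 to D5 (0.035) and Irf8 from D0 to D19 (0.18), and with Ccr7 and Fscn1 at 2 or more UMIs for S100a8 (0.075). The first of these settings leaves cells out by UMIs of Lyz2, Ncr1 and other markers, so that it lowers these genes by construction, and for the others the cause was not tested. Of the other values for named genes between days, 1836 kept direction and side of the limit and 207 kept direction only. For the 32 subset differences these were 387 and 60. Depth was lowest at D19, with 1 UMI in the D19 sum worth 0.43 CPM, and CD301b+ cells at D0 were 34 cells in which 1 UMI was worth 3.63 CPM.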
